A study of Homo sapiens with 6 samples.

Results

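The genes described here are 10 fatty acid desaturases and elongases: FADS1, FADS2, FADS3, SCD, ELOVL1, ELOVL2, ELOVL4, ELOVL5, ELOVL6 and ELOVL7. They were chosen by name as members of these enzyme families, and all 10 were found by symbol among the 34869 genes of the deposited table. The list was drawn up with the comparison of shTPD52 with shCtrl already known. The members' values below are therefore descriptions. A member's adjusted p gives its place in the fit over all genes and supports nothing further. RNA was sequenced from NCI-H295R, an established steroid-producing cell line from a human adrenocortical carcinoma. In the shTPD52 group, 3 libraries came from cells infected with a lentiviral short hairpin RNA against TPD52. In the shCtrl group, 3 libraries came from cells of the same line given a lentiviral non-targeting hairpin, so both groups share the viral delivery. The labels name 1 hairpin condition against TPD52 and no hairpin sequence, and nothing in them says whether replicates came from separate cultures. The p-values then reflect only the spread between these libraries, which may be technical.

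Desaturases place double bonds into the acyl chain of a fatty acyl-CoA, and elongases lengthen it. FADS2 catalyses the first and usually rate-limiting desaturation of the dietary polyunsaturated fatty acids linoleic and alpha-linolenic acid. ELOVL5 then lengthens the product, and FADS1 adds the next double bond, which yields arachidonic and eicosapentaenoic acid. SCD makes oleic and palmitoleic acid from saturated chains, which ELOVL6 lengthens, while ELOVL1, ELOVL4 and ELOVL7 act on long and very long chains. In adrenal cortex, cholesterol is stored in lipid droplets as esters rich in polyunsaturated chains, among them adrenic acid, the elongation product of arachidonic acid. Transcription of FADS1, FADS2, SCD and ELOVL6 is known to respond to sterol regulatory element-binding proteins (SREBPs).

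Levels are FPKM, reads scaled to gene length and library size. TPD52 RNA averaged 1.30 ± 0.12 FPKM in shCtrl against 0.640 ± 0.013 FPKM in shTPD52 (SD, n = 3 each), a ratio of 0.493 without overlap (limma adjusted p = 0.0218). Library totals worked back from the FPKM lay between 29544341 and 38396624 reads. shTPD52 replicate 2 stood apart from the other knockdown libraries, at 0.291 on the first principal component against 27.3 and 35.3, with shCtrl between -24.1 and -16.4. All 8 adrenocortical markers examined were above 0 in every library, and 4 of the 8 passed as higher in shTPD52. Of these, HSD3B2 (1.80 in log2 units) and MC2R (1.47), a steroidogenic enzyme and the corticotropin receptor, had the smallest limma adjusted p (0.00138 and 0.00378). FDX1 (0.42, limma adjusted p = 0.0202) and CYP21A2 lost their calls without any 1 shCtrl library or shTPD52 replicate 1, leaving 2 of 8, and CYP21A2 also without shTPD52 replicate 3. CYP17A1 lay lower in every shTPD52 library (-0.36, limma adjusted p = 0.0565) and passed as lower in limma-voom. Of 4 chromaffin markers with values, CHGB made up nearly all of a summed level of 44.8 to 49.0 FPKM in shCtrl and 35.1 to 38.5 FPKM in shTPD52. TH, the defining chromaffin enzyme, stayed at or under 0.123 FPKM. Summed levels of 6 fibroblast markers ran from 23.2 to 24.9 FPKM in shCtrl and 19.3 to 24.5 FPKM in shTPD52, nearly all from COL3A1. PTPRC, the defining leukocyte marker, was at 0 in 4 of 6 libraries and at most 0.00636 FPKM in the others. The 5 endothelial markers summed to at most 0.628 FPKM. The part of these marker levels in the results below was not tested, and in bulk RNA fewer cells of a type and less RNA per cell cannot be told apart.

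Among the desaturases and elongases, FADS2 RNA rose 2.17-fold in mean FPKM with the knockdown, and no other member passed the test. The other desaturases and the elongases differed by between -0.15 and 0.22 on the log2 scale. The test was limma, a moderated linear model on log2(FPKM + 0.5), fitted over the 12782 genes whose mean reached 1 FPKM and adjusted by Benjamini-Hochberg over all of them with a threshold of 0.05. That filter kept 9 of the 10 members, and ELOVL2 lay under it. Of the 9, 1 was called higher, 0 lower and 8 not. The count of 0 also holds at an unadjusted limma p of 0.05 and in limma-voom on recovered reads. Over all genes tested 18.3% were called, 5.63% higher and 12.7% lower, and nothing is read from the members' count beside those shares. Groups did not overlap for 2 members, FADS2 and FADS1, both with all shTPD52 libraries above all shCtrl libraries. Over all tested genes 42% did not overlap, 13.8% with shTPD52 above and 28.3% with it below. The median log2 fold change was 0.073 over the 9 members and -0.11 over all genes tested. Median-ratio scaling moved the latter to 0.00 and changed the calls over all genes from 720 higher and 1621 lower to 1083 and 1038. Each member's change can be read against that shift.

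**Figure D1:**
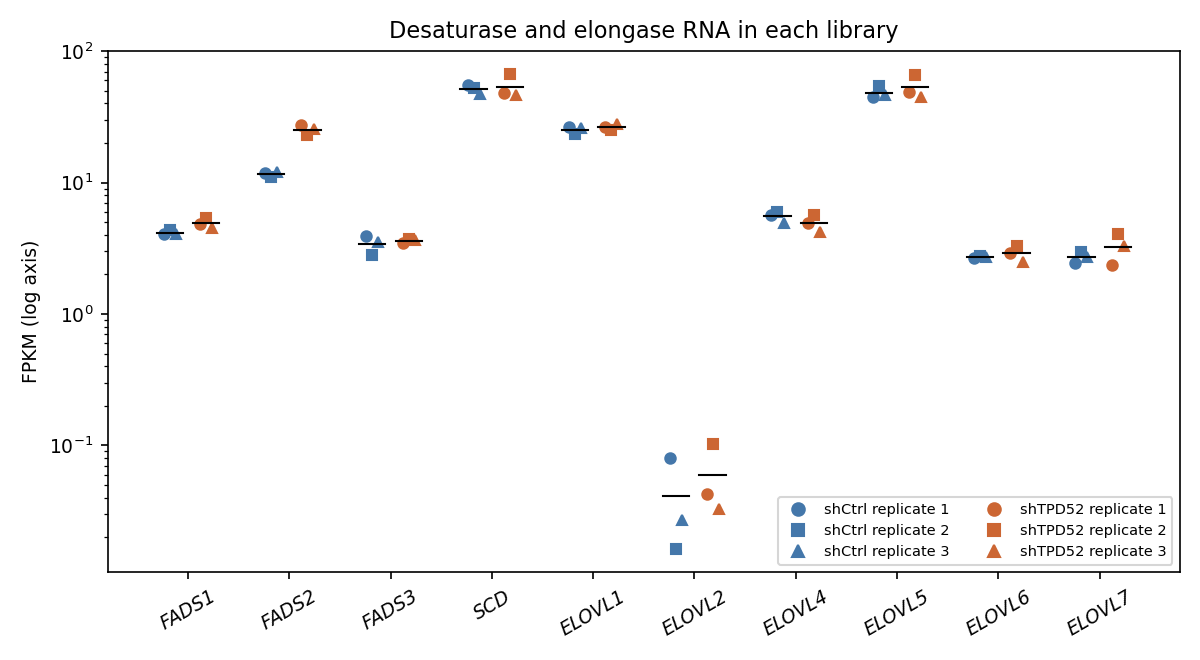
FPKM of each desaturase and elongase (log axis) in the 3 shCtrl libraries (blue) and 3 shTPD52 libraries (orange). Marker shapes give the replicate and black lines the group mean. FADS2 separates the groups, at 11.1 to 12.1 FPKM against 22.9 to 27.5 FPKM. ELOVL2 lies far under the other members, at or under 0.103 FPKM.

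FADS2, the entry enzyme of polyunsaturated fatty acid synthesis (ENSG00000134824, GENCODE 29 on GRCh38, chromosome 11, 61792980 to 61867354, plus strand), had levels of 11.9, 11.1 and 12.1 FPKM in shCtrl replicates 1, 2 and 3. The same replicates of shTPD52 had 27.5, 22.9 and 25.6 FPKM. Every knockdown library was thus higher than every control library, and replicate 2 was the lowest of the knockdown libraries. These levels rest on 3590 to 4700 reads per shCtrl library and 8580 to 10380 reads per shTPD52 library. The log2 fold change was 1.08 (SE 0.092, 95% interval 0.87 to 1.29, limma adjusted p = 0.0037), position 69 from the top among all tested genes. FADS2 passed in all 15 alternatives to the processing, with log2 fold changes from 1.02 to 1.43 and limma adjusted p from 0.000693 to 0.0272. Without shTPD52 replicate 2 it was 1.15 (limma adjusted p = 0.000693). Its level moved from above 72.3% of tested genes in shCtrl to above 88.2% in shTPD52.

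FADS1, which makes arachidonic acid (ENSG00000149485, chromosome 11, 61799625 to 61829318, minus strand), had levels of 4.06, 4.36 and 4.08 FPKM in shCtrl, here and below in the order of replicates 1, 2 and 3. In shTPD52 they were 4.87, 5.38 and 4.53 FPKM, so the groups did not overlap. Its values rest on 1363 to 2008 reads per library. The difference was small beside that of FADS2, a log2 fold change of 0.22 (SE 0.099, 95% interval -0.013 to 0.45, limma adjusted p = 0.147). FADS1 passed after median-ratio scaling (0.33, limma adjusted p = 0.0338), quantile normalization (0.36, limma adjusted p = 0.0227) and removal of length and GC trends (0.54, limma adjusted p = 0.00686). FADS3, the third gene of the cluster and a sphingoid base desaturase (ENSG00000221968, chromosome 11, 61873519 to 61892051, minus strand), was at 3.94, 2.83 and 3.52 FPKM in shCtrl and 3.44, 3.72 and 3.66 FPKM in shTPD52. The groups overlapped, with both the lowest and the highest value in shCtrl, and its log2 fold change was 0.072 (SE 0.13, 95% interval -0.22 to 0.37, limma adjusted p = 0.702). That sign turned without shCtrl replicate 2 (-0.043).

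The gene models of FADS2 and FADS1 lie on opposite strands, and that of FADS2 spans the whole of FADS1 in GENCODE 29. They share 490 exonic bases, of 11026 in FADS2 and 10230 in FADS1, and FADS2 shares 49 exonic bases with FEN1 on its own strand. Reads were worked back at searched lengths of 10553 bases for FADS2 and 10228 for FADS1. The gene models used in the counting may therefore differ from those of GENCODE 29. The strand setting of the counting is not given in the sources used here, so reads in the shared bases cannot be assigned to one gene. GENCODE 29 lists 15 FADS2 transcripts. The one marked principal starts at 61827761 and another at 61816404. The table gives 1 value per gene and does not separate them.

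Upstream sequences are shown for FADS2 and FADS1, the pair at 1 locus with unequal differences, and for SCD and ELOVL5, the members with the highest levels. Each is the 250 bases before a RefSeq start on GRCh38.p14, read 5′ to 3′ on the gene's strand. The FADS2 window is chr11:61816154-61816403 on the plus strand, before the latter start, since the RefSeq table used holds no window for the principal FADS2 start. The FADS1 window is chr11:61817004-61817253 on the minus strand, and the principal GENCODE start of FADS1 at 61817162 lies inside it. The SCD window is chr10:100346983-100347232 on the plus strand and the ELOVL5 window chr6:53348951-53349200 on the minus strand. The FADS2 and FADS1 windows lie wholly inside their GENCODE 29 gene models. Those of SCD (from 100347124) and ELOVL5 (from 53349179) begin inside their windows. Marked bases may therefore be transcribed, and the cAMP response element of FADS1 lies downstream of its principal start. Capitals mark matches, on either strand, to any of 6 motifs: the sterol regulatory element TCACNCCAC, the CCAAT box CCAAT, the E-box CACGTG, the cAMP response element TGACGTCA, the steroidogenic factor 1 element CAAGGTCA and the GC box GGGCGG.
FADS2: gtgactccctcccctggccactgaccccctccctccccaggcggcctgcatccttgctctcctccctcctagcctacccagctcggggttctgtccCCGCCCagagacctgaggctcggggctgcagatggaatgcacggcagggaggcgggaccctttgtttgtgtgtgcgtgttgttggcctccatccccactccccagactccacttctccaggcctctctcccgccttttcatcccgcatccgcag
FADS1: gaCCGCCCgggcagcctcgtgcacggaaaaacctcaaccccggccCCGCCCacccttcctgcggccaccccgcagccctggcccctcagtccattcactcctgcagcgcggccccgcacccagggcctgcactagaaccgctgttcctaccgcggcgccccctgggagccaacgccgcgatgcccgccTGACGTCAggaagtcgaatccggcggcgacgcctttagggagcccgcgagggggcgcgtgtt
SCD: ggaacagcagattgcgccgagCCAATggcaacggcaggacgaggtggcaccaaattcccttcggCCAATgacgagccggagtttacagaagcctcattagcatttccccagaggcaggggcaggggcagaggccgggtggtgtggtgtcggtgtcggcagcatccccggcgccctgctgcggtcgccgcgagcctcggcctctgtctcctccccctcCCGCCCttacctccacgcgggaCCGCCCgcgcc
ELOVL5: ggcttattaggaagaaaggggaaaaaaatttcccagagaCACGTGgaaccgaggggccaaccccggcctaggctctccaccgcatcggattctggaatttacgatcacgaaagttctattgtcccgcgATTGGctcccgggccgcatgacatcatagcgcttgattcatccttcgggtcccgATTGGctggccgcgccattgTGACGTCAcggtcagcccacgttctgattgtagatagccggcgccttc

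In windows of 300 bases (250 before and 50 after the start), all 10 members matched the RefSeq table, with 11 windows because FADS2 has a pair. The cAMP response element was in the windows of FADS1 and ELOVL5 and in 1.85% of all 35116 windows. The E-box was in those of ELOVL4 and ELOVL5 and in 7.26% of all windows. CCAAT boxes were in the windows of 6 members and 34.6% of all windows, and the printed SCD and ELOVL5 sequences each hold a pair. The CCAAT box of FADS2 lies just after the start, outside the printed bases. GC boxes were in 9 members and 45.0% of all windows, ELOVL5 being the exception. Neither the sterol regulatory element (1.13% of all windows) nor the steroidogenic factor 1 element (1.28%) was in any member window, which says only that these letters are not there. No matches overlap in the sequences printed. The capitals in the FADS2 sequence mark a GC box alone, while FADS1 has a pair of GC boxes and the cAMP response element.

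The balance between the desaturases differed between the groups. The desaturase ratios, shares and sum below all contain FADS2, so they are not results separate from its rise. SCD itself had a log2 fold change of 0.035 with overlapping groups. The ratio of FADS2 to FADS1, both as FPKM, was 2.92, 2.55 and 2.96 in shCtrl and 5.65, 4.25 and 5.65 in shTPD52, without overlap. The ratio of FADS2 to SCD was 0.228 ± 0.026 (SD, n = 3) in shCtrl and 0.492 ± 0.129 (n = 3) in shTPD52. FADS2 made up 16.6% ± 1.38 of the summed FPKM of the 4 desaturases in shCtrl and 29.4% ± 5.37 in shTPD52 (SD, n = 3 each). SCD made up 72.7% ± 1.97 and 60.8% ± 5.86. The lowest FADS2 share among knockdown libraries was that of replicate 2, at 23.2%, still over the highest shCtrl share of 18.1%. The summed level of the 4 lay between 66.5 and 75.6 FPKM in shCtrl and between 80.0 and 98.5 FPKM in shTPD52, without overlap. That of the 6 elongases was 84.6 ± 4.19 and 90.7 ± 11.6 FPKM (SD, n = 3 each), with overlap.

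**Figure D2:**
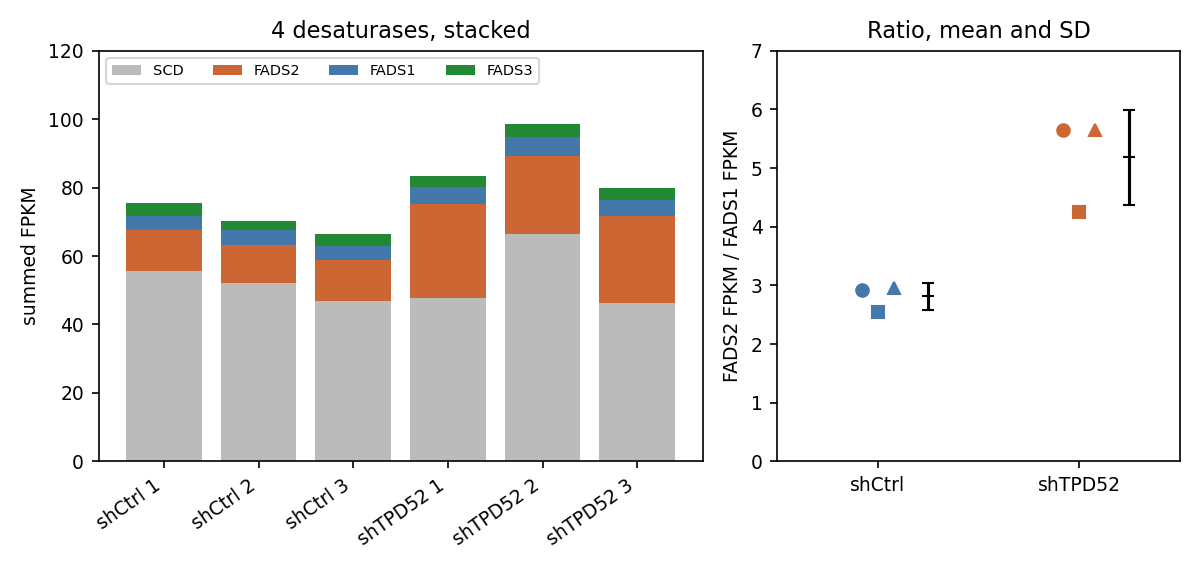
Left, FPKM of SCD, FADS2, FADS1 and FADS3 stacked for each library (bars start at 0). Right, the ratio of FADS2 to FADS1 FPKM by library with the mean and SD of each group (n = 3). The FADS2 segment grows from 16.6% to 29.4% of the stack on average, and the ratio goes from 2.81 ± 0.23 to 5.18 ± 0.81.

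SCD, the stearoyl-CoA desaturase that supplies oleic acid (ENSG00000099194, chromosome 10, 100347124 to 100364834, plus strand), was the most abundant member by mean in both groups. Its levels were 55.8, 52.0 and 46.9 FPKM in shCtrl and 47.7, 66.5 and 46.2 FPKM in shTPD52. Replicate 2 alone lay above the control range, and the other knockdown libraries lay within it or just under. The log2 fold change was 0.035 (SE 0.14, 95% interval -0.30 to 0.37, limma adjusted p = 0.876). Its sign turned without shTPD52 replicate 2 (-0.13) or shCtrl replicate 3 (-0.031). ELOVL6, which lengthens palmitate toward stearate, the substrate of SCD (ENSG00000170522, chromosome 4, 110045846 to 110199199, minus strand), was at 2.65, 2.78 and 2.70 FPKM in shCtrl and 2.89, 3.31 and 2.47 FPKM in shTPD52. The control values lay close together and the knockdown values on both sides of them. Its log2 fold change was 0.073 (SE 0.12, 95% interval -0.21 to 0.35, limma adjusted p = 0.683) and turned to -0.015 without shTPD52 replicate 2. The ratio of SCD to ELOVL6 was 19.0 ± 1.88 in shCtrl and 18.4 ± 1.82 in shTPD52 (SD, n = 3 each), with overlapping groups.

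ELOVL5, the elongase of polyunsaturated chains that acts between FADS2 and FADS1 (ENSG00000012660, chromosome 6, 53267398 to 53349179, minus strand), was the most abundant elongase. It stood at 44.4, 54.2 and 46.7 FPKM in shCtrl and 49.2, 65.6 and 44.6 FPKM in shTPD52, and the groups overlapped. The log2 fold change was 0.12 (SE 0.15, 95% interval -0.22 to 0.46, limma adjusted p = 0.579), and -0.042 without shTPD52 replicate 2. ELOVL5 made up 57.1% ± 3.18 of the summed FPKM of the 6 elongases in shCtrl and 58.2% ± 4.52 in shTPD52 (SD, n = 3 each). ELOVL2, which lengthens longer polyunsaturated chains on the way to docosahexaenoic acid (ENSG00000197977, chromosome 6, 10980759 to 11044314, minus strand), was nearly silent by comparison. It was at 0.0805, 0.0164 and 0.0272 FPKM in shCtrl and 0.0424, 0.103 and 0.0327 FPKM in shTPD52. These rest on 2 to 15 reads per library, and shCtrl replicate 2 lies under a floor of 3 reads. No difference was detectable at this depth: added to the fit, ELOVL2 differed by 0.047 on the log2 scale (limma SE 0.21, adjusted p = 0.89), and -0.0084 without shTPD52 replicate 2.

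ELOVL4, which forms the longest saturated and polyunsaturated chains (ENSG00000118402, chromosome 6, 79914812 to 79947580, minus strand), was at 5.63, 6.02 and 4.92 FPKM in shCtrl and 4.93, 5.65 and 4.20 FPKM in shTPD52. It was the one tested member with a negative log2 fold change, -0.15 (SE 0.13, 95% interval -0.45 to 0.14, limma adjusted p = 0.396), and the groups overlapped. Its share of the summed elongase FPKM was 6.52% ± 0.51 in shCtrl and 5.43% ± 0.33 in shTPD52 (SD, n = 3 each), and these shares did not overlap. ELOVL1, which makes very long saturated and monounsaturated chains for sphingolipids (ENSG00000066322, chromosome 1, 43363397 to 43368074, minus strand), was at 26.4, 23.4 and 25.9 FPKM in shCtrl and 26.3, 25.3 and 27.9 FPKM in shTPD52. The groups overlapped, with the lowest value in shCtrl and the highest in shTPD52, and the log2 fold change was 0.070 (SE 0.083, 95% interval -0.12 to 0.26, limma adjusted p = 0.556). ELOVL7, an elongase of saturated long chains (ENSG00000164181, chromosome 5, 60751791 to 60844389, minus strand), was at 2.44, 2.98 and 2.70 FPKM in shCtrl and 2.34, 4.10 and 3.27 FPKM in shTPD52. Knockdown libraries held both its lowest and its highest value. Its log2 fold change was 0.20 (SE 0.18, 95% interval -0.22 to 0.61, limma adjusted p = 0.438), and 0.034 without shTPD52 replicate 2.

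**Figure D3:**
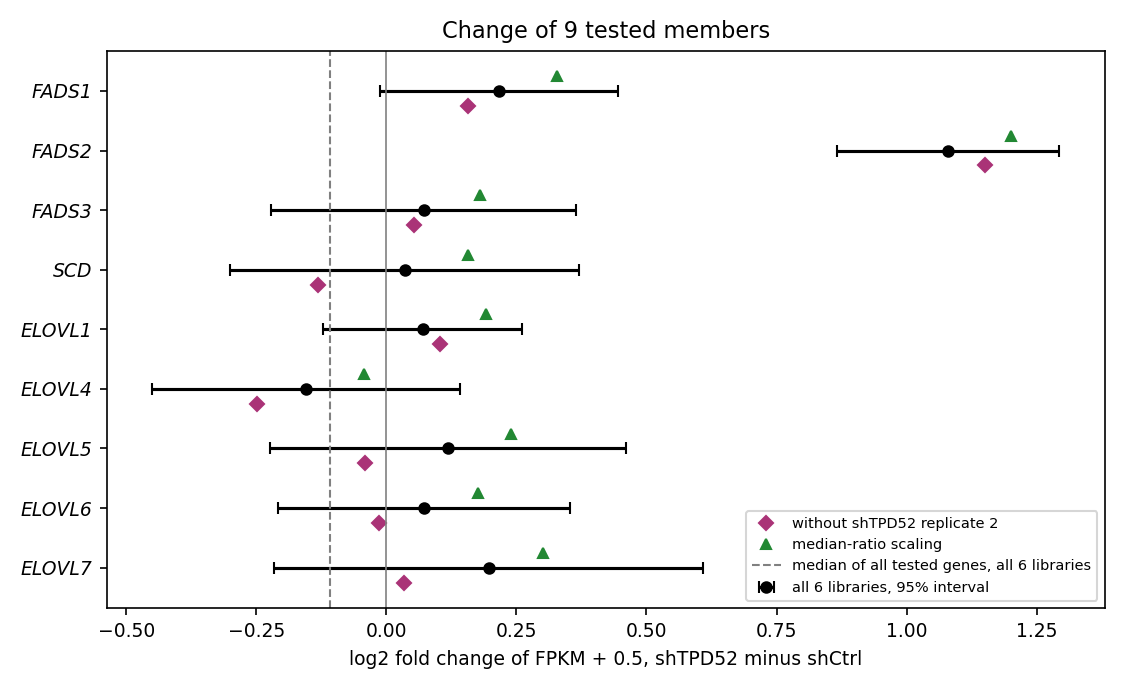
Log2 fold change of FPKM + 0.5, shTPD52 minus shCtrl, of the 9 tested members with all 6 libraries (black, 95% interval), without shTPD52 replicate 2 (purple) and after median-ratio scaling (green). The dashed line is the median of all tested genes, -0.11. FADS2 lies between 1.08 and 1.20 in all 3 settings, and SCD, ELOVL5 and ELOVL6 change sign without replicate 2.

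The library shTPD52 replicate 2 carried the highest of the 6 values for 6 members, FADS1, SCD, ELOVL2, ELOVL5, ELOVL6 and ELOVL7, a pattern singled out after the values were seen. ELOVL2 was not among the tested genes, so 5 of these were tested members. The same library was the highest for 16.3% of all tested genes. After median-ratio scaling the count was again 6, with 5 tested, beside 14.2% of tested genes. On the log2(FPKM + 0.5) scale, SCD was 0.50 higher in replicate 2 than the mean of replicates 1 and 3, ELOVL7 0.49 and ELOVL5 0.48. Over all tested genes that difference had a median of 0.11 and a 75th percentile of 0.33. FADS2 stood the other way, at -0.21, under the 25th percentile of -0.12. The other tested members lay between those percentiles: FADS1 at 0.18, FADS3 at 0.058, ELOVL1 at -0.098, ELOVL4 at 0.28 and ELOVL6 at 0.26. These differences rest on 1 library, and their cause was not tested.

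Ordered by mean FPKM in shCtrl, SCD and ELOVL5 came first with overlapping libraries. ELOVL1, FADS2, ELOVL4, FADS1 and FADS3 followed, each with all libraries under all those of the gene before. ELOVL6 and ELOVL7 came next, overlapping each other, with the highest ELOVL7 library (2.98 FPKM) above the lowest of FADS3 (2.83 FPKM), and ELOVL2 was last. In shTPD52 the order at the top was the same, but FADS2 at 25.3 ± 2.34 FPKM now overlapped ELOVL1 at 26.5 ± 1.31 FPKM (SD, n = 3 each). In shCtrl they had stood at 11.7 ± 0.50 and 25.2 ± 1.60 FPKM. FADS1 at 4.93 ± 0.43 FPKM and ELOVL4 at 4.93 ± 0.72 FPKM overlapped in shTPD52.

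None of the 7 tested neighbours listed around the FADS cluster at 11q12 passed as higher in limma, also at an unadjusted p of 0.05 and in limma-voom, while 3 fell and 4 did not pass. Without shTPD52 replicate 2, 1 passed as higher (FEN1, 0.20, limma adjusted p = 0.0312) and 4 as lower. That fit called 12.6% of all genes higher and 32.9% lower, and counts without this library here and below stand beside those shares. RAB3IL1, an activator of Rab GTPases next to FADS3, fell by 0.76 on the log2 scale, from 3.84 ± 0.19 to 2.07 ± 0.11 FPKM (SD, n = 3 each; limma adjusted p = 0.00877). That call ended without shCtrl replicate 3 (limma adjusted p = 0.0636). MYRF, a membrane-bound transcription factor, fell by 0.72, and FTH1, the ferritin heavy chain, by 0.39 (limma adjusted p = 0.0255 and 0.0261). Both calls ended on leaving out any 1 library except shTPD52 replicate 2, with limma adjusted p reaching 0.106 and 0.114, and with no filter. That of MYRF also ended after the length and GC correction and that of FTH1 with median-ratio scaling. FTH1 has many processed pseudogenes, so its level is uncertain. FEN1, the flap endonuclease gene that overlaps FADS2, had a log2 fold change of 0.12 and TMEM258 of 0.053, the latter turning sign without shTPD52 replicate 3 (-0.064). DAGLA had -0.53 and SYT7 -0.32, and none of these 4 passed (limma adjusted p = 0.32, 0.783, 0.0543 and 0.239). DAGLA passed as lower in limma-voom (adjusted p = 0.0236) and without shTPD52 replicate 2 (limma adjusted p = 0.019), so that 4 neighbours were lower in each. Limma-voom called 16.6% of all genes lower. A window of 300 kb on each side of FADS2, set after the values were seen, held 12 tested genes. With all 6 libraries FADS2 itself was the only gene there to pass as higher, and 4 passed as lower. Over all tested genes that fit called 5.63% higher and 12.7% lower, and the neighbours' counts above also stand beside those shares. The window was centred on a gene known to rise, so nothing is read from its counts.

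**Figure D4:**
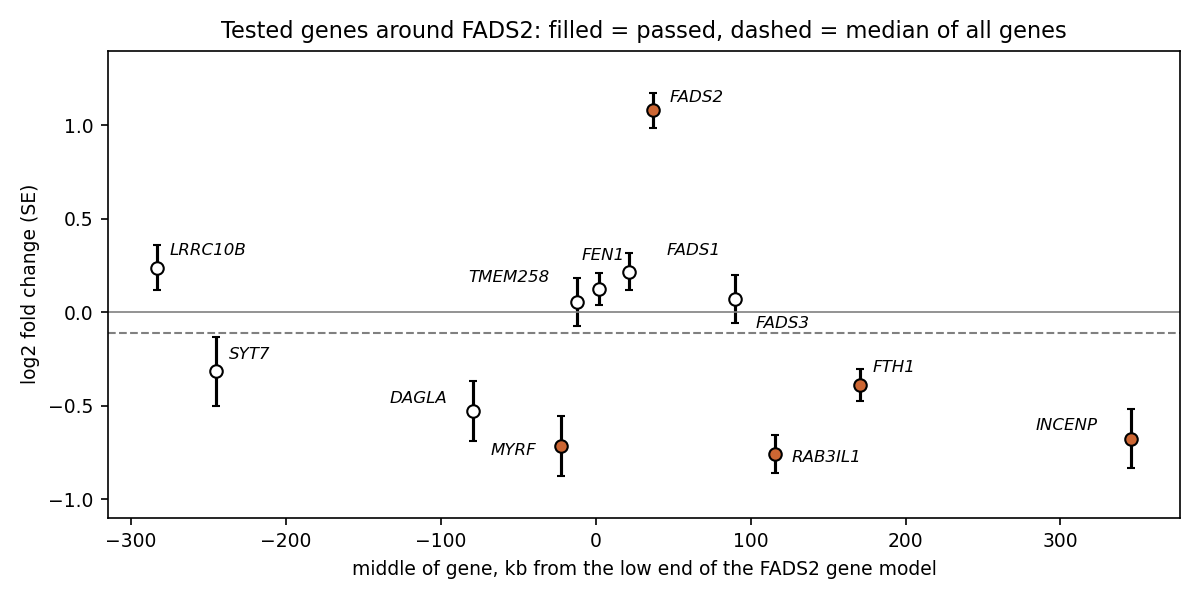
Log2 fold change (bars, SE) of the 12 tested genes within 300 kb of FADS2, by the distance of the gene's middle from the low end of the FADS2 gene model. Filled points passed limma at an adjusted p of 0.05, and the dashed line is the median of all tested genes. FADS2 at 1.08 stands above all others, and RAB3IL1 at -0.76 is the lowest.

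Outside the 10, 5 further desaturase genes and ELOVL3 were considered with FAXDC2. Of the 5 tested, 1 rose, 1 fell and 3 did not pass, and without shTPD52 replicate 2 the counts were 2 higher and 1 lower. ELOVL3, an elongase of saturated and monounsaturated chains, was at 2.79, 3.18 and 3.58 FPKM in shCtrl and 4.52, 5.21 and 4.99 FPKM in shTPD52, without overlap. The rise was 0.56 in log2 units (SE 0.12, limma adjusted p = 0.0212). FAXDC2, a fatty acid hydroxylase domain gene, fell by 0.52 (limma adjusted p = 0.0302). Both calls ended with no filter and on leaving out any 1 library except shTPD52 replicate 2, with limma adjusted p reaching 0.0797 and 0.111. SCD5, the second stearoyl-CoA desaturase, named after its values were seen, averaged 16.4 ± 1.34 FPKM in shCtrl against 14.6 ± 1.49 FPKM in shTPD52 (SD, n = 3 each) and did not pass (limma adjusted p = 0.271). The ratio of SCD to SCD5 was 3.14 ± 0.30 and 3.63 ± 0.46, with overlapping groups.

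Elongases work with a ketoreductase, a dehydratase and an enoyl reductase, and desaturases draw electrons from cytochrome b5. None of 5 tested genes of the elongation cycle passed in limma (1 at an unadjusted p under 0.05, 0 in limma-voom), and their median log2 fold change was 0.11. None of 4 tested cytochrome b5 genes and reductases passed in limma either (0 at an unadjusted p under 0.05, 0 in limma-voom), with a median of 0.015. After the length and GC correction 1 of these 4 was higher and 0 lower, where 10.4% of all genes were higher and 10.3% lower. TECR, the enoyl reductase, singled out after the values were seen, lay higher in every shTPD52 library (0.36, limma adjusted p = 0.0666). It passed with a filter of 5 FPKM, after removal of length and GC trends and without shTPD52 replicate 2 (limma adjusted p = 0.0491, 0.021 and 0.00855). In that last fit 1 gene of each list was lower. Of 9 tested genes of substrate supply, 2 fell and 0 rose, with a median of -0.26 that turned to 0.053 after the length and GC correction. For comparison, the median of all genes was -0.11, and 0.0057 after that correction. ACLY, which makes cytosolic acetyl-CoA, fell by 0.53 and ACSS2, an acetyl-CoA synthetase, by 0.30 (limma adjusted p = 0.0301 and 0.0479). Both calls ended on leaving out any 1 library except shTPD52 replicate 2, with limma adjusted p reaching 0.118 and 0.185, and with no filter. That of ACSS2 also ended with median-ratio scaling, quantile normalization and the length and GC correction. Without shTPD52 replicate 2, 5 of the substrate supply genes were lower and 1 higher. With median-ratio scaling or quantile normalization 1 was higher and 1 lower.

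Among 15 tested regulators, 1 fell and 0 rose, with a median of -0.19 that turned to 0.080 after the length and GC correction. The median of all genes went from -0.11 to 0.0057 with that correction. Without shTPD52 replicate 2, 6 regulators were lower, or 6 of 15 where 32.9% of all genes were. SREBF1, which encodes the SREBP that drives fatty acid synthesis genes, averaged 19.5 ± 1.00 FPKM in shCtrl against 19.5 ± 0.84 FPKM in shTPD52 (SD, n = 3 each; limma adjusted p = 0.993). After the length and GC correction SREBF1 passed as higher (0.32, limma adjusted p = 0.016). SREBF2, which encodes the SREBP of sterol synthesis, was at 11.2 ± 0.55 and 9.82 ± 1.67 FPKM and differed by -0.19 in log2 units (limma adjusted p = 0.288). It passed as lower without shTPD52 replicate 2 (-0.31, limma adjusted p = 0.0151), and its sign turned after the length and GC correction (0.089). RXRB, a partner of nuclear lipid receptors, fell by 0.39 (limma adjusted p = 0.0202). That call was lost after median-ratio scaling and on leaving out any 1 library except shTPD52 replicate 2, with limma adjusted p reaching 0.101. INSIG1, the sterol-sensitive anchor of SREBPs, singled out after the values were seen, was at 8.10 ± 0.47 and 10.4 ± 1.78 FPKM without overlap and did not pass (limma adjusted p = 0.0932). Like FADS1, it passed after median-ratio scaling, quantile normalization and removal of length and GC trends (limma adjusted p = 0.0282, 0.0267 and 0.039).

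Of 6 tested peroxisomal genes that shorten the precursor of docosahexaenoic acid, 0 passed in limma (1 lower at an unadjusted p under 0.05, 1 lower in limma-voom). Their median of -0.048 turned to 0.059 with median-ratio scaling, while that of all genes went from -0.11 to 0.00. Of the 6, 2 were lower without shTPD52 replicate 2. After the length and GC correction 1 was higher and 0 lower, where 10.4% of all genes were higher and 10.3% lower. Of 9 tested genes of very long chain use 1 fell and 0 rose (3 lower and 2 higher without shTPD52 replicate 2), and their median was -0.27. Here the length and GC correction gave 1 higher and 0 lower. CERS2, the ceramide synthase for very long chains, fell by 0.37 (limma adjusted p = 0.0496). Of 9 tested genes that place or use polyunsaturated chains 1 fell and 0 rose (3 lower and 1 higher without shTPD52 replicate 2), and their median was -0.16. With median-ratio scaling or quantile normalization, 1 of these was higher and 0 lower. The length and GC correction gave 3 higher and 1 lower. PLA2G6, a phospholipase, fell by 0.44 (limma adjusted p = 0.0222). Both calls ended with no filter, with either scaling, after the length and GC correction and on leaving out any 1 shCtrl library or shTPD52 replicate 1. That of CERS2 ended also without shTPD52 replicate 3 and at a pseudocount of 0.1, and over the alternatives limma adjusted p reached 0.167 for CERS2 and 0.143 for PLA2G6.

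**Figure D5:**
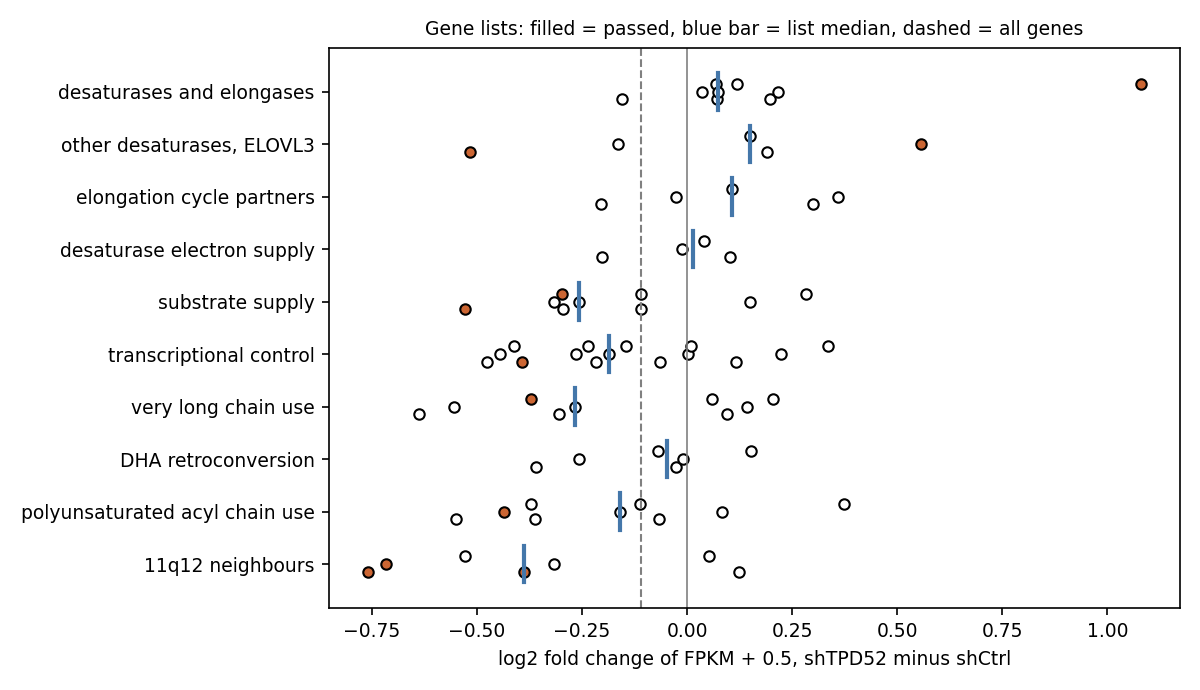
Log2 fold change of FPKM + 0.5, shTPD52 minus shCtrl, of every tested gene in the desaturase and elongase list and 9 related lists. Filled points passed limma at an adjusted p of 0.05, blue bars are list medians and the dashed line the median of all tested genes. FADS2 at 1.08 is the highest point and substrate supply has a median of -0.26.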

How the data were processed

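The values are FPKM, computed and deposited by the authors for 34869 genes, 1 column per library. Per the submitters' processing notes the tools were HISAT2 2.2.1 and featureCounts 2.0.3 with GRCh38 (hg38), with no role stated. The annotation release and strand setting are not stated in those notes or labels. FPKM were used unscaled in limma 3.58.1 (R 4.3.3) with an intensity trend, a pseudocount of 0.5 and a filter of a mean of 1 FPKM. ELOVL2 and TPD52, under the filter, were each added to a fit of their own. Fold changes on this scale understate those of low genes. Library totals and reads per gene were worked back from FPKM and gene length, so that reads came out whole within 0.02. Lengths were those of GENCODE 29 for 19235 genes and searched for in 15141. Whether both mates of a pair were counted is not stated, and reads and floors cover counting error only. Symbols matched 34864 genes.

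The members and all lists were chosen with earlier results of these data known. Named were every member, and of each other list the 3 passing genes of smallest adjusted p, with SREBF1, SREBF2, every tested gene of the 11q12 list and TPD52. Outside that rule, SCD5, TECR, INSIG1, CYP21A2, CYP17A1 and CYP11A1 are also named, as are the markers TH, COL3A1 and PTPRC. Alternatives were pseudocounts of 0.1 and 1, no filter or one of 5 FPKM, median-ratio scaling, quantile normalization, removal of each library's loess trend (span 0.3) on length and GC content, the replicate number as a block, limma-voom on the recovered reads, and leaving out each library. The fit was tested on simulated data. The summed level of the leukocyte marker list is not reported here.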

Additional observations from a re-analysis of the deposited data

How the results depend on the processing

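FADS2 passed under each of the 15 alternatives. Of 144 values of single members under alternatives, 135 kept their direction and side of the threshold. The count of members higher went from 1 to 2, by FADS1, with median-ratio scaling, quantile normalization and the length and GC correction, and it was 1 without any 1 library, while 0 members were lower throughout. Without shTPD52 replicate 2 the log2 fold change reversed for SCD (-0.13), ELOVL5 (-0.042), ELOVL6 (-0.015) and ELOVL2 (-0.0084). It reversed for FADS3 without shCtrl replicate 2 (-0.043) and for SCD without shCtrl replicate 3 (-0.031). With 1 library left out at a time, the ranges were -0.13 to 0.13 for SCD, -0.042 to 0.23 for ELOVL5, -0.015 to 0.16 for ELOVL6, -0.0084 to 0.098 for ELOVL2 and -0.043 to 0.17 for FADS3. None of the reversed values passed, and the cause was not tested. Over all genes, 177 were higher and 354 lower without a filter, 1083 and 1038 with median-ratio scaling, 1152 higher with quantile normalization and 1316 higher after the length and GC correction. Leaving out 1 library gave 48 to 1616 higher and 39 to 4209 lower, the upper ends without shTPD52 replicate 2. Same-numbered libraries correlated at 0.045, 0.25 and 0.022 in their deviations from the group means. Replicates 1 and 2 of shTPD52 correlated best with the shCtrl library of their own number. shTPD52 replicate 3 correlated best with shCtrl replicate 1 (0.28). With 3 libraries per group these values cannot show whether same-numbered libraries share more than a number. With the replicate block, 906 genes were higher and 2158 lower, FADS2 kept its call (log2 fold change 1.08, limma adjusted p = 0.00322) and 1 member was called. Of the other listed genes, the block brought TECR, DAGLA, CYP11A1 and CYP17A1 past the threshold (limma adjusted p = 0.0455, 0.0456, 0.0285 and 0.0455) and took ACSS2 out (0.0516). ELOVL2 has no value under a filter of 5 FPKM or quantile normalization, and ELOVL6, ELOVL7, FADS1 and FADS3 none under that filter. Depth limits ELOVL2, at 2 to 15 reads.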
